A study of Mus musculus with 9 samples.

Results

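Excitatory neurons of the mouse cortex lie in layers, and 9 genes that mark them were followed here by name in every mouse. Cux1, Cux2, Rorb and Lamp5 mark the upper layers, and Fezf2, Tbr1, Tle4, Foxp2 and Syt6 mark the deep layers. The genes are found by symbol in every file, with no threshold on a measured value. All 9 were found among the 24532 genes listed for each mouse, and all 9 were among the 14370 genes that averaged at least 30 reads and were tested.

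RNA came from the medial prefrontal cortex (mPFC), with 1 library per mouse and 3 mice in each of 3 groups. The labels give the strain as C57BL/6 and the age as 11 weeks, and the study's methods describe male mice aged 8 weeks. CT mice were wild-type and stayed in their home cages, WT_ST mice were wild-type and underwent chronic restraint stress (CRS), and KO_ST mice underwent the same stress and carried a homozygous knock-out of Fkbp5. CRS was restraint for 6 h a day over 21 days, also in the home cages. By the study's methods, CT mice as well as stressed mice went without food and water during CRS exposure. Fkbp5 encodes a co-chaperone of Hsp90 that lowers the sensitivity of the glucocorticoid receptor, and the knock-out line had been backcrossed to C57BL/6J and all mice came from heterozygous parents. There was no unstressed knock-out group, so KO_ST against WT_ST compares genotypes under stress only, and KO_ST against CT changes genotype and stress together. Both comparisons with CT use the same 3 CT mice.

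The layers differ in where their neurons send axons. Neurons of layers 2 and 3 connect mainly to other cortical areas, layer 5 holds the neurons that project to the brainstem and spinal cord, and many layer 6 neurons project to the thalamus. In mice the mPFC has no distinct granular layer 4, and it takes part in the control of the stress response. The markers are mostly transcription factors that set these identities during development and remain expressed in the adult, so their level in tissue RNA is often read as a sign of which layers a piece of cortex contains.

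The reads counted on genes numbered 43778471 to 61150128 per mouse. Levels are given as FPKM, in which the fragments of a gene are scaled for the length of its transcripts and for the mapped reads of the library, so genes can be compared with each other on it. The tissue had the profile of cortex, with Slc17a7, the vesicular glutamate transporter of cortical excitatory neurons, at 581 to 677 FPKM in the 9 mice. The targeted gene followed the labels. Fkbp5 was measured at 7.61, 6.46 and 7.28 FPKM in CT, at 9.83, 9.47 and 10.3 in WT_ST and at 3.59, 4.69 and 4.45 in KO_ST, and KO_ST differed from WT_ST by -1.04 on the log2 scale (limma adjusted p = 0.00908). Reads were still counted on it in the KO_ST mice, 625 to 907 per mouse.

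Lamp5 was the most abundant of the markers and Foxp2 the least. Over the 9 mice the mean level was 99.9 FPKM for Lamp5, 52.4 for Tbr1, 26.2 for Fezf2, 19.2 for Cux2, 17.4 for Tle4, 12.4 for Cux1, 11.7 for Syt6, 3.87 for Rorb and 2.69 for Foxp2. Neighbours in this order kept their place in all 9 mice except at 2 steps. Cux2 exceeded Tle4 in 7 of the 9 mice and Cux1 exceeded Syt6 in 7 of the 9, and the ranges of FPKM of these pairs overlapped. Upper-layer and deep-layer markers were mixed in the order, with an upper-layer marker first, the deep-layer markers Tbr1 and Fezf2 next and a deep-layer marker last. Even the least abundant marker was well covered, with 751 to 1140 reads on Foxp2 per mouse, against 7728 to 13097 on Lamp5.

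**Figure D1:**
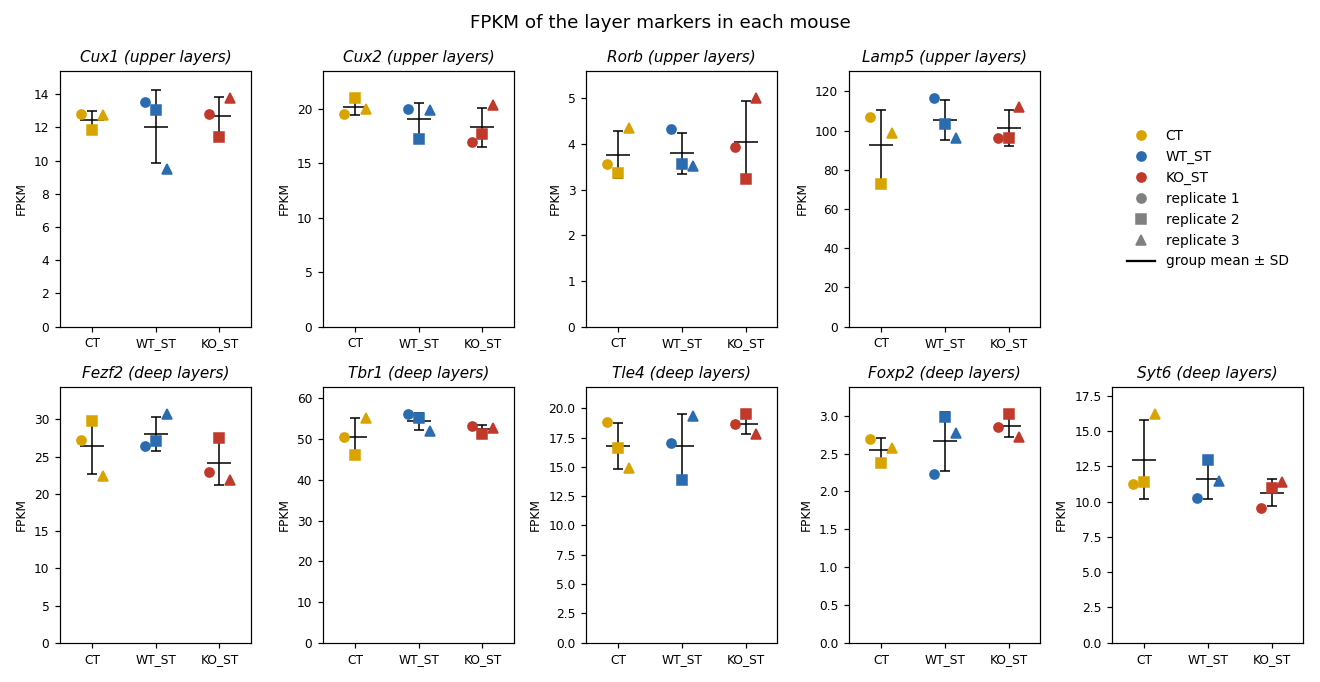
FPKM (y axis, from 0) of each layer marker in every mouse, by group, with group mean ± SD (n = 3). The groups overlap for all markers in all comparisons, except that the 3 KO_ST mice (2.72 to 3.02) lie above the 3 CT mice (2.38 to 2.69) for Foxp2.

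Cux1 and Cux2 encode related homeodomain transcription factors that shape the dendrites and synapses of upper-layer neurons. Cux1 was measured at 12.8, 11.8 and 12.7 FPKM in CT, at 13.5, 13.0 and 9.50 in WT_ST and at 12.8, 11.4 and 13.8 in KO_ST. WT_ST replicate 3 was the lowest of all mice and the rest lay close together. Cux2 was measured at 19.5, 20.96 and 20.0 FPKM in CT, at 20.0, 17.3 and 19.8 in WT_ST and at 16.9, 17.7 and 20.3 in KO_ST. Its mean fell from group to group, from 20.1 ± 0.750 (SD, n = 3) in CT to 19.0 ± 1.53 in WT_ST and 18.3 ± 1.79 in KO_ST, but the groups overlapped.

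Rorb, an orphan nuclear receptor best known from layer 4 of sensory cortex, was measured at 3.56, 3.37 and 4.35 FPKM in CT. In WT_ST it stood at 4.32, 3.57 and 3.52, and in KO_ST at 3.92, 3.23 and 5.004. KO_ST held both the lowest and the highest mouse. Lamp5 encodes a membrane protein of the lysosome-associated family and is expressed in upper-layer excitatory neurons and also in a class of inhibitory neurons. It was measured at 107, 72.7 and 98.6 FPKM in CT, at 117, 103 and 96.2 in WT_ST and at 96.1, 96.3 and 112 in KO_ST. CT replicate 2 lay below all other mice, and the groups overlapped.

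Fezf2, a zinc-finger transcription factor that specifies the layer 5 neurons projecting below the cortex, was measured at 27.2, 29.8 and 22.4 FPKM in CT. It stood at 26.4, 27.1 and 30.7 in WT_ST and at 22.9, 27.5 and 21.9 in KO_ST. Of the KO_ST mice, replicate 2 lay within the WT_ST range and the other two lay below it. Tbr1, a T-box transcription factor of early-born layer 6 neurons, was measured at 50.4, 46.0 and 55.2 FPKM in CT, at 56.0, 55.1 and 51.9 in WT_ST and at 53.3, 51.2 and 52.7 in KO_ST. It varied least of the markers between mice, with a coefficient of variation of 5.88%.

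Tle4, Foxp2 and Syt6 mark layer 6 neurons, many of which project to the thalamus. Tle4, a co-repressor of the Groucho family, was measured at 18.8, 16.6 and 14.9 FPKM in CT, at 17.1, 13.9 and 19.4 in WT_ST and at 18.7, 19.5 and 17.8 in KO_ST. The WT_ST mice spanned almost the whole range of the gene. Foxp2, a forkhead transcription factor also expressed in the striatum, was measured at 2.69, 2.38 and 2.57 FPKM in CT, at 2.23, 2.98 and 2.77 in WT_ST and at 2.85, 3.02 and 2.72 in KO_ST. All KO_ST mice lay above all CT mice, narrowly, and the WT_ST mice lay on both sides of that gap. Syt6, a synaptotagmin, was measured at 11.3, 11.4 and 16.2 FPKM in CT, at 10.3, 13.0 and 11.5 in WT_ST and at 9.54, 11.0 and 11.4 in KO_ST. CT replicate 3 stood apart from the rest at the top.

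The markers differed among themselves in their spread between mice. Their coefficient of variation over the 9 mice ran from 5.88% (Tbr1) to 16.3% (Syt6), with a median of 11.3%. The median was 8.42% over all tested genes and 6.97% over the 10008 tested genes within the markers' range of mean FPKM, and the difference of these medians was not tested. After Syt6, the coefficient was largest for Rorb (15.0%), Lamp5 (12.6%) and Fezf2 (12.1%). It was 10.6% for Cux1, 9.70% for Foxp2 and 7.68% for Cux2.

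No layer marker differed between groups under the criteria used, an unadjusted p under 0.05 with a fold change above 1.2. Differences were tested with limma on quantile-normalized log2(FPKM + 1), a scale that understates the fold change of genes of low FPKM, and p-values were adjusted (Benjamini-Hochberg) over all 14370 genes. Over the 27 tests of 9 markers in 3 comparisons, 0 had an unadjusted p under 0.05, where 7.86% of all tested genes did in WT_ST against CT, 9.46% in KO_ST against CT and 5.82% in KO_ST against WT_ST. The lowest adjusted p of a marker was 0.539, and 0.0348%, 0.0626% and 0.153% of tested genes had one under 0.05 in the same order. The largest change of a marker was 0.22 in size on the log2 scale. On the read counts, 0 of the 9 markers met the criteria in each comparison, both with edgeR, which called 3.72%, 4.63% and 2.96% of tested genes, and with DESeq2, which called 3.84%, 5.14% and 2.85%. In tissue RNA, fewer neurons of a layer and less RNA per neuron cannot be told apart, so these values speak to the sum of both.

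For WT_ST against CT, which asks about stress in wild-type mice, 0 of 9 markers were called, beside 2.47% of all tested genes. Log2 fold changes were positive for 5 of the 9 and ran from -0.13 for Syt6 to 0.19 for Lamp5. The Syt6 value was -0.052 on reads (edgeR and DESeq2), where Cux2 at -0.073 was the lowest, and 0.024 on FPKM without CT replicate 3. The Lamp5 difference had a standard error of 0.138 (limma adjusted p = 0.747), and its 95% interval in fold was 0.911 to 1.43. The groups overlapped in FPKM for all 9 markers, where 14.0% of tested genes did not overlap. For Cux2 and Tbr1 the whole 95% interval lay within a 1.2-fold change in either direction, and for the other 7 markers a change of that size was not excluded by the interval. The widest bounds were a fold of 0.725 for Syt6 and 1.43 for Lamp5. For Lamp5 the outcome rested on single mice. Without CT replicate 1 its log2 fold change was 0.31 (unadjusted p = 0.0491 by limma), past the criteria, and without CT replicate 2, its lowest mouse, 0.031.

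For KO_ST against CT, in which genotype and stress differ together, 0 of 9 markers were called, beside 3.56% of all tested genes. Foxp2 came nearest. Its log2 fold change was 0.16 (standard error 0.0707, unadjusted p = 0.0567 and adjusted p = 0.539 by limma), with a 95% interval in fold of 0.996 to 1.25. On the read counts the log2 fold change was 0.19 (edgeR, unadjusted p = 0.0546 and adjusted p = 0.541). Foxp2 was also the 1 marker of 9 whose groups did not overlap, where 16.5% of tested genes did not, 5.90% with KO_ST higher. On FPKM the largest change in size was that of Syt6, -0.22 (standard error 0.137, adjusted p = 0.631 by limma). It was -0.069 without CT replicate 3, the highest Syt6 mouse, -0.31 without CT replicate 1, and -0.16 on reads with edgeR, smaller than that of Foxp2. The values of Tle4 (0.16), Lamp5 (0.15), Cux2 (-0.13), Fezf2 (-0.12), Rorb (0.10), Tbr1 (0.055) and Cux1 (0.046) were smaller or about equal to that of Foxp2. Intervals lay within a 1.2-fold change for Cux1 and Tbr1 and reached past it for the other 7 markers, down to a fold of 0.685 for Syt6 and up to 1.39 for Lamp5.

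For KO_ST against WT_ST, the genotypes under stress, 0 of 9 markers were called, beside 2.0% of all tested genes, and the groups overlapped for all 9, where 11.1% of tested genes did not. The largest value was that of Fezf2, -0.21 (standard error 0.0986, unadjusted p = 0.0672 and adjusted p = 0.869 by limma), followed by Tle4 at 0.17 (standard error 0.108, adjusted p = 0.924 by limma). Both values moved with single mice in either direction. Without KO_ST replicate 2 the log2 fold change of Fezf2 was -0.31 (unadjusted p = 0.00574 by limma), and without WT_ST replicate 3 that of Tle4 was 0.27 (unadjusted p = 0.0226 by limma), both past the criteria. The smallest values were -0.14 for Fezf2, without WT_ST replicate 3, and 0.052 for Tle4, without WT_ST replicate 2. Intervals lay within a 1.2-fold change for Cux2, Lamp5 and Tbr1. That of Tbr1 was the narrowest, at 0.912 to 1.03 in fold. The other 6 reached past 1.2-fold, down to 0.735 for Fezf2 and up to 1.34 for Tle4.

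**Figure D2:**
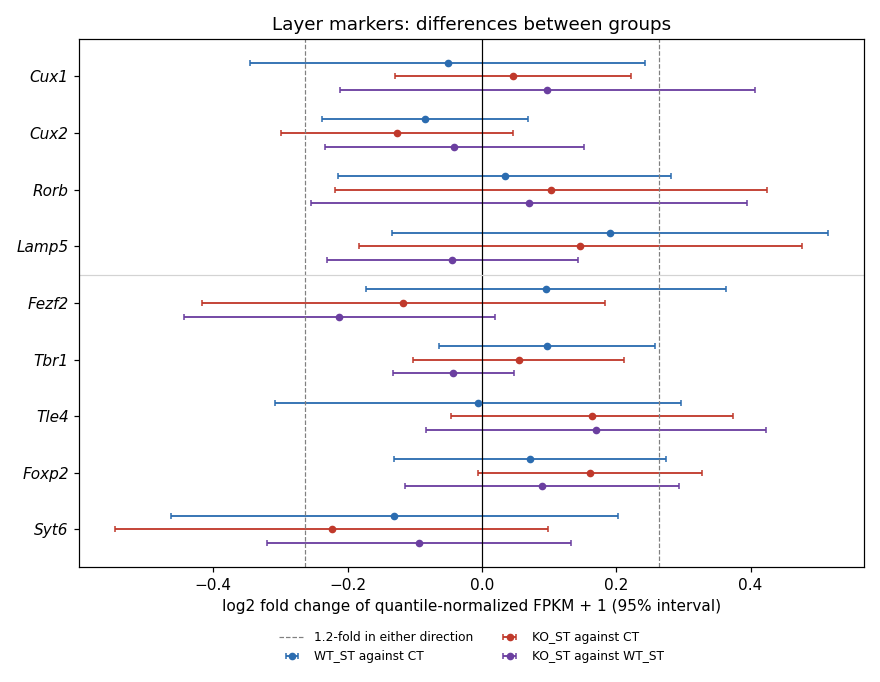
Log2 fold change of quantile-normalized FPKM + 1 (x axis) of each marker in the 3 comparisons, with 95% intervals from limma. Dashed lines mark a 1.2-fold change in either direction. All 27 intervals cross 0, with that of Foxp2 in KO_ST against CT the nearest to clearing it.

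The balance of upper-layer and deep-layer markers overlapped between the groups in FPKM. The mean log2 level of the upper-layer markers minus that of the deep-layer markers was 0.219, 0.110 and 0.247 in the CT mice. It was 0.386, 0.167 and 0.0131 in the WT_ST mice and 0.218, 0.0364 and 0.426 in the KO_ST mice. The CT mice lay inside the range of the KO_ST mice. The lowest value, that of WT_ST replicate 3, includes a Cux1 level in FPKM that did not follow the reads of that mouse, and its part in the lower end of the WT_ST range was not tested.

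Cux1 was the marker for which read counts and FPKM told different stories in 1 mouse. In CPM, the reads of a gene scaled to the reads counted on all genes, it was measured at 53.7, 46.4 and 51.1 in CT, at 54.1, 52.8 and 57.2 in WT_ST and at 52.5, 47.9 and 58.5 in KO_ST. WT_ST replicate 3, the lowest mouse in FPKM, was thus the second highest in reads. The ratio of CPM to FPKM, which follows the length of the transcripts that the reads were assigned to, ran from 3.93 to 4.25 in the other 8 mice and reached 6.02 in WT_ST replicate 3. The highest of the mice divided by the lowest was 1.53 for Cux1, and 0.292% of tested genes exceeded that, while the median over tested genes was 1.01.

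The direction of the Cux1 difference turned with the unit. For WT_ST against CT the log2 fold change was -0.051 on FPKM, 0.12 on reads with edgeR (unadjusted p = 0.112) and 0.10 on FPKM without WT_ST replicate 3. For KO_ST against WT_ST it was 0.10 on FPKM, -0.036 on reads with edgeR and -0.053 on FPKM without that mouse. Of the 7 transcripts listed for Cux1 in the files, 5 were matched in the GENCODE annotation, with lengths from 2821 to 12862 bases, the widest span among the markers. Whether the transcripts of Cux1 differed in that mouse was not tested, because values per transcript were not analysed here.

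Syt6, with 6 listed transcripts, came next, with a ratio of highest to lowest mouse of 1.17, which 1.80% of tested genes exceeded. Its CPM per FPKM was 3.65, 3.69 and 3.70 in CT, 3.87, 3.97 and 3.99 in WT_ST and 4.11, 4.205 and 3.60 in KO_ST. All WT_ST mice thus lay above all CT mice in this ratio, and the WT_ST against CT fold change of Syt6 was -0.13 on FPKM and -0.052 on reads. In the remaining 7 markers both units ran together more closely. The ratio of highest to lowest mouse was 1.05 for Tle4, 1.03 for Rorb and Foxp2, and 1.02 for Cux2. Lamp5, Fezf2 and Tbr1, each with a single listed transcript, had 1.01. In these 3 the CPM per FPKM itself sat close to the transcript length, at 1.997 to 2.009 for the 1955 bases of Lamp5, 2.35 to 2.37 for the 2188 bases of Fezf2 and 4.06 to 4.09 for the 3977 bases of Tbr1.

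**Figure D3:**
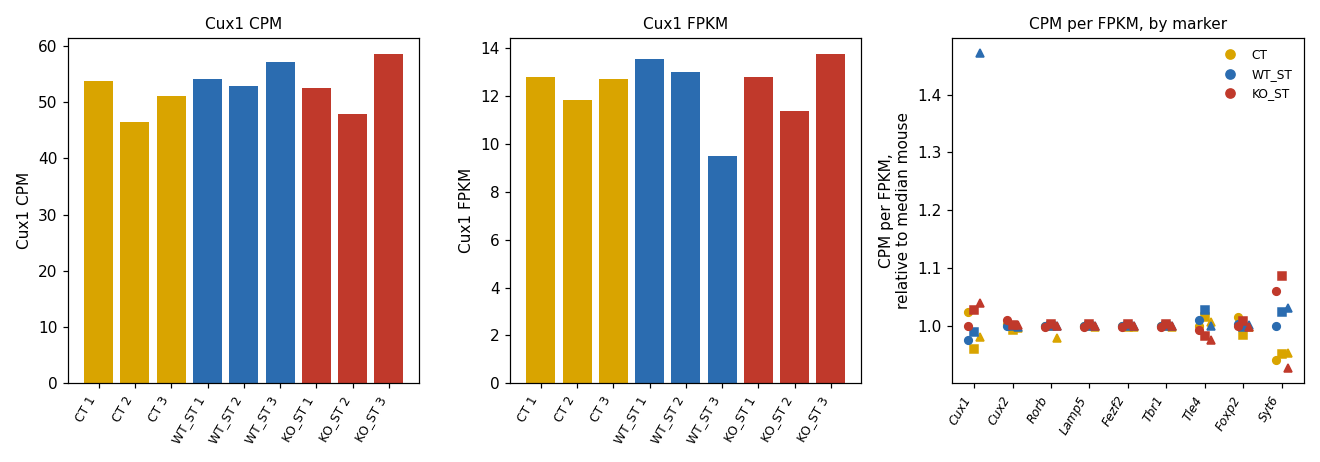
Cux1 in CPM (left) and in FPKM (middle) in each mouse, and the CPM per FPKM of each marker relative to its median mouse (right). WT_ST replicate 3 is the second highest mouse for Cux1 in reads and the lowest in FPKM, with 6.02 CPM per FPKM against 3.93 to 4.25 in the other mice.

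Whether markers of the same layers varied together between mice was asked of every pair. Pearson correlations of quantile-normalized log2(FPKM + 1) over the 9 mice were computed for all 36 pairs. The median was 0.36 over the 6 pairs of upper-layer markers, of which 4 were positive, -0.074 over the 10 pairs of deep-layer markers, of which 5 were positive, and -0.034 over the 20 pairs that crossed. By exact permutation tests (two-sided), 5 pairs had an unadjusted p under 0.05, and 0 of 36 did after Benjamini-Hochberg adjustment, with a lowest adjusted p of 0.294. With group means subtracted, the medians were 0.52, -0.022 and -0.10 for the same kinds of pair.

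Among the upper-layer markers, Cux1, Rorb and Lamp5 had positive correlations with each other, and Cux2 ran less closely with them. Cux1 and Rorb had 0.62 (exact permutation p = 0.0684, adjusted p = 0.410) and a rho of 0.80 (exact permutation p = 0.0138, adjusted p = 0.249), and 0.77 without 2 mice. Cux1 and Lamp5 had 0.45 (exact permutation p = 0.190, adjusted p = 0.747) and a rho of 0.67 (exact permutation p = 0.0589, adjusted p = 0.391). For Cux1 and Lamp5 the correlation was 0.91 without KO_ST replicate 2 and WT_ST replicate 3, and 0.71 over all mice on CPM (log2, TMM scaling, unadjusted exact permutation p = 0.0280). Rorb and Lamp5 had 0.55 (exact permutation p = 0.117, adjusted p = 0.604) and a rho of 0.57 (exact permutation p = 0.121, adjusted p = 0.531), and 0.22 without 2 mice.

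Over all 9 mice the opposite course of Rorb and Fezf2 had the largest correlation in size. Their correlation was -0.79 (exact permutation p = 0.0142, adjusted p = 0.294) and Spearman's rho was -0.87 (exact permutation p = 0.00451, adjusted p = 0.162). Without the 2 mice farthest from the median of Rorb the correlation was -0.89, and with group means subtracted -0.83, so it ran within the groups. Fezf2 was lowest in KO_ST replicate 3 and CT replicate 3, the mice with the highest and the second highest Rorb. Cux2 and Foxp2 also ran opposite, with a correlation of -0.78 (exact permutation p = 0.0163, adjusted p = 0.294), a rho of -0.73 (exact permutation p = 0.0311, adjusted p = 0.280), -0.72 without 2 mice and -0.69 with group means subtracted. With group means subtracted, the deep-layer markers Fezf2 and Tbr1 ran opposite almost as closely as Rorb and Fezf2, at -0.82, and Rorb and Foxp2 had -0.70. Before that step Fezf2 and Tbr1 had -0.50 (exact permutation p = 0.1697, adjusted p = 0.747) and a rho of -0.63 (exact permutation p = 0.0760, adjusted p = 0.391), and Rorb and Foxp2 had -0.33 (exact permutation p = 0.390, adjusted p = 0.910) and a rho of -0.43 (exact permutation p = 0.250, adjusted p = 0.625). After Benjamini-Hochberg adjustment 0 of 36 pairs passed in either form.

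The remaining 3 pairs were less steady. Cux1 and Fezf2 had a correlation of -0.68 (exact permutation p = 0.0278, adjusted p = 0.310) and a rho of -0.77 (exact permutation p = 0.0214, adjusted p = 0.257). Their correlation was -0.51 without 2 mice and -0.28 on CPM (log2, TMM scaling), the unit in which Cux1 of WT_ST replicate 3 was not low. On FPKM without that mouse alone it was -0.57, and the cause of the difference between units was not tested. Tle4 and Syt6 had -0.69 (exact permutation p = 0.0351, adjusted p = 0.310) and a rho of -0.53 (exact permutation p = 0.148, adjusted p = 0.531). Without CT replicate 3 and WT_ST replicate 2 the correlation of Tle4 and Syt6 was 0.057, so it rested on that pair of mice, while it stayed between -0.75 and -0.57 without any 1 mouse and was -0.64 on CPM. Lamp5 and Tbr1 had 0.76 (exact permutation p = 0.0431, adjusted p = 0.310) and a rho of 0.40 (exact permutation p = 0.291, adjusted p = 0.625), and 0.11 without CT replicate 2, the lowest mouse of both genes.

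**Figure D4:**
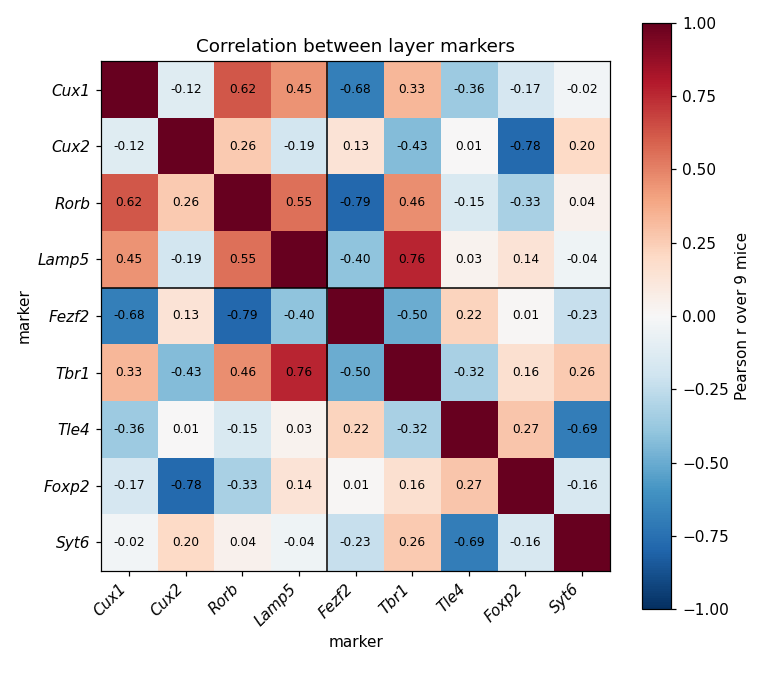
Pearson correlation over 9 mice of each pair of layer markers on quantile-normalized log2(FPKM + 1), with the line dividing upper-layer from deep-layer markers. The values run from -0.79 (Rorb and Fezf2) to 0.76 (Lamp5 and Tbr1), and both blocks on the diagonal hold positive and negative values.

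Other genes known from the same layers were read beside the markers. Of 41 such genes found in the files, 39 were tested, 13 of upper layers and layer 4 or 5, 13 of layer 5 and 13 of layer 6 and 6b. Chrna6 and Car3 fell under the read minimum. In WT_ST against CT, 3 of the 39 were called higher and 3 lower. The higher ones were all layer 5 genes, Deptor (log2 fold change 0.63), which encodes an inhibitor of mTOR, Bcl11b (0.48), the transcription factor Ctip2 that acts downstream of Fezf2, and Slc17a8 (0.38), a vesicular glutamate transporter. The lower ones were Ntsr1 (-0.40), the neurotensin receptor of layer 6 corticothalamic neurons, and from the upper-layer list Otof (-0.38) and Rspo1 (-0.27). In KO_ST against CT, Bcl11b (0.39), Pcp4 (0.29) and Sox5 (0.35) were called higher and Otof (-0.64) lower. In KO_ST against WT_ST, Cplx3 (-0.40) alone was called, lower. Of these calls, Bcl11b in WT_ST against CT, Otof in KO_ST against CT and Cplx3 held whichever mouse was left out, and each of the others was lost without at least 1 mouse. The Cplx3 call was lost with all 9 mice in 1 fit (unadjusted p = 0.169 by limma), in which CT, where Cplx3 ran from 3.13 to 8.40 FPKM, adds to the estimate of spread. None of these had an adjusted p under 0.05 by limma, and the shares of all tested genes called were those given above, 2.47%, 3.56% and 2.0%.

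Bcl11b was measured at 8.71, 6.21 and 6.44 FPKM in CT, at 9.16, 10.9 and 10.3 in WT_ST and at 10.2, 9.55 and 8.40 in KO_ST. Every WT_ST mouse lay above every CT mouse, and Fezf2, the factor upstream of it in developing layer 5 neurons, overlapped between all groups. Otof, which encodes otoferlin, was measured at 8.71, 10.9 and 7.74 FPKM in CT, at 5.88, 6.13 and 7.91 in WT_ST and at 5.27, 4.80 and 6.01 in KO_ST. All KO_ST mice lay below all CT mice. Ntsr1 was measured at 4.16, 6.30 and 6.49 FPKM in CT, at 3.89, 4.08 and 3.73 in WT_ST and at 3.63, 4.80 and 3.84 in KO_ST, and the WT_ST mice lay below all CT mice. These 3 genes were described because they were called. Of the 39 other layer genes, the groups did not overlap for 5 in WT_ST against CT, 7 in KO_ST against CT and 7 in KO_ST against WT_ST, beside 14.0%, 16.5% and 11.1% of all tested genes.

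As whole lists, the layer genes had median changes of at most 0.11 in size. The median log2 fold change of the other layer 5 genes was 0.10 in WT_ST against CT, with 12 of 13 positive, 0.11 in KO_ST against CT and -0.059 in KO_ST against WT_ST. It was -0.011, -0.078 and -0.034 in the same comparisons for the other upper-layer genes, and -0.029, -0.087 and -0.075 for the other layer 6 and 6b genes. For the 4 upper-layer markers it was -0.0087, 0.075 and 0.014, and for the 5 deep-layer markers 0.072, 0.055 and -0.043. Negative values were counted for 10 of 13 other upper-layer genes in KO_ST against CT and 10 of 13 in KO_ST against WT_ST, and for 10 and 11 of 13 other layer 6 and 6b genes in the same comparisons. For layer 5 they were 4 and 8 of 13. Over all tested genes, 7046 of 14370 were negative in KO_ST against CT and 7290 in KO_ST against WT_ST, and the median in WT_ST against CT was 0.0034.

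**Figure D5:**
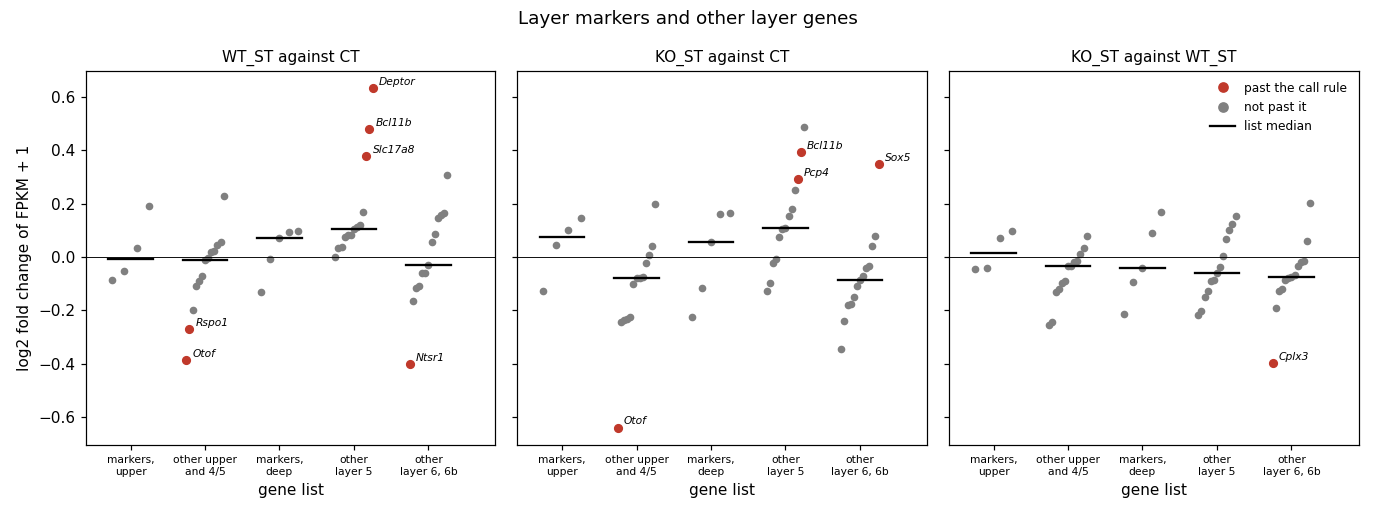
Log2 fold change of FPKM + 1 (y axis) of the layer markers and of the other layer genes in each comparison. Each point is a gene, red points met the criteria of p and fold change and are named, and bars are list medians. No marker is red, and 6, 4 and 1 of the 39 other layer genes are.

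Levels of genes that mark other cell types, of the mPFC or of the striatum, moved between mice too. The summed FPKM of 8 oligodendrocyte genes was 489 to 932 in CT, with replicate 3 at the top, 522 to 826 in WT_ST and 559 to 728 in KO_ST, and 0 of the 8 were called in each comparison. The summed FPKM of 11 genes of striatal projection neurons was 82.7 to 107 in CT, 96.3 to 127 in WT_ST and 92.8 to 114 in KO_ST. In WT_ST against CT, 3 of 10 tested were called, Drd2 (0.59), Adora2a (0.45) and Rgs9 (0.54), all higher. In KO_ST against CT, Drd2 (0.32) and Tac1 (0.44) were called higher. In KO_ST against WT_ST, Rgs9 (-0.53) was called lower and Tac1 (0.30) higher. Of all tested genes, 2.47% were called in WT_ST against CT, 3.56% in KO_ST against CT and 2.0% in KO_ST against WT_ST. No striatal gene had an adjusted p under 0.05 by limma. The defining genes Drd2 and Adora2a were low, with Drd2 at 0.640 to 2.28 FPKM over the 9 mice. Over the 9 mice Foxp2 had a median correlation of 0.38 with the 10 tested striatal genes, positive for 9. For the other markers this median ran from -0.39 for Cux1 to 0.24 for Fezf2. The part of striatal cells in the values of Foxp2, which the striatum also expresses, and of Bcl11b, likewise, was not tested.

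The summed FPKM of 6 microglial genes was 97.0 to 125 in CT, 78.5 to 84.8 in WT_ST and 43.2 to 87.9 in KO_ST. In both comparisons with CT, 5 of the 6 were called lower, none with an adjusted p under 0.05 by limma. Of all tested genes, 2.47% were called in WT_ST against CT and 3.56% in KO_ST against CT. Over the 9 mice Cux2 had a median correlation of 0.73 with the 6 microglial genes, positive for 5, and Foxp2 of -0.64, positive for 1. The part of microglia in the values of these markers was not tested. The 8 general genes of excitatory neurons, Slc17a7 among them, gave 0 calls in each comparison, and their summed FPKM overlapped between groups at 2265 to 2417 in CT, 2220 to 2463 in WT_ST and 2181 to 2451 in KO_ST.

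Within the 9 mice, Syt6 ran with the genes of several glial types and of layer 6. Its median correlation was 0.73 with the 8 oligodendrocyte genes, positive for 8 of 8, and 0.59 with the 13 other layer 6 and 6b genes, positive for 10, while it was -0.54 with the 13 layer 5 genes. It was also 0.64 with the 6 microglial genes, 0.52 with the 6 astrocyte genes and 0.48 with the 5 genes of blood vessels. CT replicate 3, the highest mouse for Syt6, was also the highest for the summed oligodendrocyte genes (932 FPKM) and for the summed layer 6 and 6b genes (299 FPKM). Tle4, a marker of the same layer, ran the other way, with a median of -0.49 with the oligodendrocyte genes, -0.46 with the other layer 6 and 6b genes and 0.40 with the layer 5 genes. Fezf2 followed the layer 5 genes, with a median of 0.55 and 11 of 13 positive. Tbr1 had a median of 0.65 with the oligodendrocyte genes. With the other upper-layer genes the median was 0.45 for Cux2, 0.19 for Cux1, 0.13 for Rorb and 0.010 for Lamp5. Cux2 ran more closely with the microglial genes (0.73, 5 of 6 positive) and those of blood vessels (0.56, 5 of 5), and Lamp5 had 0.43 with the genes of inhibitory neurons (10 of 12). These are descriptions over 9 mice, of genes measured in the same libraries. The part of white matter or of the depth of dissection in these correlations was not tested.

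The genes whose course over the 9 mice was most like that of each marker were of mixed kinds. For Fezf2 the nearest was Ldb2 (correlation 0.951), itself a layer 5 gene, and then Vav2 (0.942). For Syt6 it was Olig1 (0.966), a transcription factor of the oligodendrocyte lineage, and then Wipf1 (0.937). For Tbr1 it was Pcdha3 (0.974) and Atf4 (0.971), and for Tle4 Mir22hg (0.967) and Exoc2 (0.961). The nearest to Foxp2 were Aff1 (0.962) and Fitm2 (0.960). Among the upper-layer markers, Cux1 was nearest to Syt13 (0.960) and Mmp28 (0.952). Cux2 had Tlr13 (0.931) among its nearest. Rorb was nearest to Rpa3 (0.962) and Mrpl40 (0.951), and Lamp5 to Cpne9 (0.959) and Ifit3 (0.958). With all other tested genes searched over 9 mice, values of this size are the top of a long list and carry no test.

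By RefSeq on GRCm38, the build of the files, the markers lie on 6 chromosomes, in pairs on 3 of them. Cux1 (chr5:136248135-136567590) and Cux2 (chr5:121857962-122050415) share chromosome 5, Lamp5 (chr2:136052025-136069917) and Tbr1 (chr2:61802863-61814114) share chromosome 2, and Rorb (chr19:18930609-19111196) and Tle4 (chr19:14448072-14598183) share chromosome 19. Fezf2 lies at chr14:12338992-12346803, Foxp2 at chr6:14901349-15441977 and Syt6 at chr3:103575245-103645567. In the GENCODE annotation 9 other genes overlap Cux1, Cux2, Foxp2 or Syt6, among them antisense genes of Cux1 (Gm16599) and Cux2 (Gm3970 and Gm15637). Of the 9, Mir721 within Cux1 was listed in the files, at 0. The libraries were stranded, but the strand setting of the counting is not given in the sources used here, so reads from an antisense partner could be counted with Cux1, Cux2 or Syt6. No gene overlaps Rorb, Lamp5, Fezf2, Tbr1 or Tle4.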

How the data were processed

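By the study's methods, poly(A) RNA libraries (TruSeq Stranded mRNA) were sequenced as 101-bp paired-end reads, which HISAT2 aligned to GRCm38 and StringTie assembled and quantified. The submitters' processing notes name HISAT2 2.1.0, Bowtie2 2.3.4.1, StringTie 1.3.4d and mm10. The deposited count of reads per gene is not normalized. Beside it the deposited FPKM of a gene takes account of transcript length and library size. The counting rule is not given in the sources used here. There were 0 columns without a sample.

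The FPKM values were transformed as log2(FPKM + 1) and quantile normalized over the 9 mice, after the study's methods. Genes averaging at least 30 reads (14370) were tested with limma 3.58.1 under R 4.3.3 (moderated variances that follow the mean) on the 6 mice of each comparison. Calls needed a fold above 1.2 and p under 0.05 before adjustment. Adjusted p-values are Benjamini-Hochberg over all tested genes. The alternatives were tests of the counts (edgeR 4.0.16, DESeq2 1.42.0), another pseudocount, other filters, other fits and single mice left out. The scripts were tested on simulated data. Any 2 libraries differed well beyond counting noise (chi-square per degree of freedom at least 18.7). Each marker had at least 751 reads per mouse, and p-values measure the spread between mice.

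The members and lists were chosen with earlier results of these data known. Named are the 9 markers, Fkbp5, Slc17a7, Drd2, Adora2a, Mbp, from each list up to 3 called genes per comparison with the largest change, and the 2 genes most correlated with each marker. Of the genes this rule selects, 2 are not reported here. Of the called genes of glia, vessels and inhibitory neurons, those not described with the layer markers are given as other observations. Plots were drawn with matplotlib 3.10.9.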

Additional observations from a re-analysis of the deposited data

How the results depend on the processing

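Each comparison was repeated under 15 alternatives, 6 of which left out a mouse. Over all settings 432 tests of single markers were made, 3 met the criteria of p and fold change, and 0 had an adjusted p under 0.05. The number of markers called was 0 under every alternative that kept all mice. Without 1 mouse it ran from 0 to 1 in WT_ST against CT, from 0 to 0 in KO_ST against CT and from 0 to 1 in KO_ST against WT_ST. On reads, the Cux1 fold change turned to 0.12 with edgeR and 0.12 with DESeq2 in WT_ST against CT, and to -0.036 and -0.032 in KO_ST against WT_ST, and that of Tle4 in WT_ST against CT to 0.0093 and 0.0092. The cause was not tested. Without 1 mouse, log2 fold changes changed sign within these ranges. In WT_ST against CT they were -0.14 to 0.10 for Cux1, -0.054 to 0.11 for Rorb, -0.024 to 0.19 for Fezf2, -0.11 to 0.11 for Tle4 and -0.21 to 0.024 for Syt6. In KO_ST against CT they were -0.0098 to 0.11 for Cux1, -0.026 to 0.22 for Rorb, -0.012 to 0.27 for Lamp5 and -0.013 to 0.12 for Tbr1. In KO_ST against WT_ST they were -0.053 to 0.18 for Cux1, -0.11 to 0.014 for Cux2, -0.060 to 0.19 for Rorb and -0.12 to 0.015 for Lamp5. The number of correlated pairs, 5, was 4 on CPM, 6 with group means subtracted and 2 to 5 without 1 mouse.

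Of the other layer genes, 6, 4 and 1 were called, but 3 and 2 with no read minimum and 1 and 1 with each gene tested by itself in the comparisons with CT, and 0 (all 9 mice in 1 fit) or 3 (edgeR, DESeq2) in KO_ST against WT_ST. Without 1 mouse these counts ran from 2 to 5, 1 to 10 (10 without CT replicate 1) and 1 to 3. With the replicate number as a block, 0 markers were called in each comparison. Over all tested genes, mice sharing a number did not deviate together (mean correlation -0.0101, from -0.26 to 0.23 over 9 pairs, against 0.0049 for other numbers). Of the 9 mice, 4 were closest to their own number. A weak pairing, or one in few genes, would not show in these values.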

Other observations

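Among the lists of other cell types, the calls that belong to no layer were these. Of 6 microglial genes, Cx3cr1, P2ry12, Tmem119, Csf1r and C1qa fell in both comparisons with CT, and P2ry12 also fell in KO_ST against WT_ST. The median log2 fold change of the list was -0.38, -0.75 and -0.39 in WT_ST against CT, KO_ST against CT and KO_ST against WT_ST. Of 5 genes of blood vessels, Cldn5 fell in WT_ST against CT, Cldn5 and Kdr fell in KO_ST against CT, and Kdr fell in KO_ST against WT_ST. Of 6 astrocyte genes, Aqp4 and Slc1a3 fell in WT_ST against CT, and 0 were called in the other comparisons. In WT_ST against CT the log2 fold change was negative for 4 of the 6 and positive for 2, up to 0.21. Pvalb, of 12 genes of inhibitory neurons, was higher in KO_ST than in CT (0.34). The 3 genes of the claustrum gave 0 calls in each comparison. Mbp, the myelin basic protein, had log2 fold changes of 0.11, -0.036 and -0.15, none past the criteria. No gene of these lists had an adjusted p under 0.05 by limma. The share of all tested genes called was 2.47% in WT_ST against CT, 3.56% in KO_ST against CT and 2.0% in KO_ST against WT_ST.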
